A study of Mus musculus with 8 samples.

Results

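The interferon-induced GTPases described here are 8 mouse genes of 2 families: the immunity-related GTPases Igtp, Irgm1, Irgm2 and Iigp1, and the guanylate-binding proteins Gbp2, Gbp3, Gbp7 and Gbp10. They were picked by gene name, with earlier results of these data known, so the counts of members called describe them and are no independent evidence. Each was read from the Affymetrix probe set that the platform annotation assigns to its symbol alone, which gave a value to 7 of the 8 genes, out of 22180 genes named in this way. Gbp2 has no value because its probe set carries the symbol of Gbp2b as well, and Igtp, Irgm1, Irgm2, Iigp1, Gbp3, Gbp7 and Gbp10 have 1 probe set each. The probe sequences were not analysed here, so binding of RNA from close relatives of these genes was not tested.

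The medial prefrontal cortex (mPFC) was taken from mice that carry a ribosome tag with green fluorescent protein (GFP), switched on by Cre recombinase. A canine adenovirus that encodes Cre (CAV2-Cre) was injected into a target of mPFC axons that the labels give as VTA or NAC, the usual short names of the ventral tegmental area and the nucleus accumbens. Viruses of this type enter axon terminals and travel back to the cell body, so mPFC cells whose axons reach that target switch on the tag. The 4 groups of 2 arrays each were VTA pull-downs and NAC pull-downs, in which tagged ribosomes were captured with the GFP-trap reagent, and VTA inputs and NAC inputs, the mPFC RNA without capture. Mice of all 4 groups carried the tag and received CAV2-Cre, so no group is free of virus. Whether the pull-downs and inputs of a target came from the same mice is not stated, so they cannot be taken as independent. The labels give neither strain, age and sex nor the promoter of the tag, and do not trace the 2 arrays within each group to separate animals, so a p-value here reflects only how far such arrays spread, which may be technical. The labels give no batch either: the injected target and anything else that differed between the VTA and NAC mice cannot be told apart.

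Interferons are cytokines that cells release on infection or immune activation. Interferon gamma acts on genes with gamma-activated sites (GAS) and through the transcription factor IRF1, which it induces; type I interferons act through a complex that holds STAT2 and IRF9 and binds interferon-stimulated response elements (ISRE). In mice, the immunity-related GTPases and the guanylate-binding proteins are among the genes most strongly induced by interferon gamma. Their proteins collect on membranes, above all on the vacuoles in which bacteria and protozoa such as Toxoplasma live, and help to break them open. Irgm1, Irgm2 and Igtp (also called Irgm3) act as regulators that sit on the cell's own membranes and hold effector GTPases such as Iigp1 (also called Irga6) in an inactive state, and proteins of the autophagy conjugation machinery help to direct the effectors to the vacuole.

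The start-site regions of the genes are shown first. In each gene with a window in the RefSeq promoter table, the letters of an ISRE lie just upstream of a start. Whether these letters bear on the measured values was not tested. RefSeq promoter sequences (build GRCm38.p6, 250 bases before to 50 after the start) were available for 6 of the 8 genes, and not for Iigp1 and Gbp10. The sequences of Igtp, Irgm2, Irgm1, Gbp7 and the upstream one of 2 starts of Gbp3 are printed. They lie at chr11:58199306-58199605 on the forward strand (Igtp), chr11:58214727-58215026 forward (Irgm2), chr11:48871371-48871670 reverse (Irgm1), chr3:142530086-142530385 forward (Gbp7) and chr3:142559794-142560093 forward (Gbp3). Each is written 5′ to 3′ on the strand of the gene, and capitals mark matches to the ISRE letters, GAAA, any 2 bases and GAAA, on either strand.
Igtp: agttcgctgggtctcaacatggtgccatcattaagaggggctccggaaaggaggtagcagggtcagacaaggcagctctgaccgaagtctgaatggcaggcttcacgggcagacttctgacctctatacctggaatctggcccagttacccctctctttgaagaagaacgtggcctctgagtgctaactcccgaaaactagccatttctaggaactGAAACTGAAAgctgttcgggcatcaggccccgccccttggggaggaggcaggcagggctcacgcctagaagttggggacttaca
Irgm2: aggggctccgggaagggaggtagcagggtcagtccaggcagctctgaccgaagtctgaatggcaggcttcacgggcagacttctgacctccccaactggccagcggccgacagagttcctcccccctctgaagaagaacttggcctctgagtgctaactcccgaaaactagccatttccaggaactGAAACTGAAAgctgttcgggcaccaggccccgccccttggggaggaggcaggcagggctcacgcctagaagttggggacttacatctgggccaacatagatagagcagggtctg
Irgm1: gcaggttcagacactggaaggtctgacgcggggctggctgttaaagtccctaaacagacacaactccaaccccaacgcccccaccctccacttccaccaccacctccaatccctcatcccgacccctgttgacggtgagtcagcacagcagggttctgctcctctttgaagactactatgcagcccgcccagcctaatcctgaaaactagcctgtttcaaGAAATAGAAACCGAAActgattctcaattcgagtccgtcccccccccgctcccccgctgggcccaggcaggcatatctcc
Gbp7: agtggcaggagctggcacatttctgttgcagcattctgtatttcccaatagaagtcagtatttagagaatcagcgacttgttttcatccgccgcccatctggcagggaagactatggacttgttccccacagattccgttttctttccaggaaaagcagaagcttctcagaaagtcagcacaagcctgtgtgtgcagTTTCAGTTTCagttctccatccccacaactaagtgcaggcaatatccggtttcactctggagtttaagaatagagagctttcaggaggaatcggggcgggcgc
Gbp3, upstream start: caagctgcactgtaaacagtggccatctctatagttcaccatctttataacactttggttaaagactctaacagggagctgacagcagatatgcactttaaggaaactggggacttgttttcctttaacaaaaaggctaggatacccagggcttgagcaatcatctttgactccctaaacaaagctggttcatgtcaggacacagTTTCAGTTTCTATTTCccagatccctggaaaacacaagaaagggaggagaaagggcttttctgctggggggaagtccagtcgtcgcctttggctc

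ISRE matches were found in 6 of 6 member genes with a window in the RefSeq promoter table, and in 6 of their 7 windows. The second start of Gbp3 had none. Over the whole table the same letters occurred in 1131 of 32851 windows of this length (3.44%) and in 3.99% of 27025 genes. Counted from the start base as 0, the match ran from -34 to -25 in Igtp, from -64 to -55 in Irgm2 and from -59 to -50 in Gbp2. Irgm1 had 2 overlapping matches, from -30 to -21 and from -24 to -15, so its 2 matches share letters. On the opposite strand, Gbp7 had a match from -53 to -44, and Gbp3 had 2 overlapping matches, from -45 to -36 and from -39 to -30.

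The GAS letters, TTC, any 3 bases and GAA, read the same on both strands and were counted once. They were found in 3 of 6 member genes, against 8.3% of all windows and 9.55% of all genes in the table, and no GAS match overlapped an ISRE match. In Igtp the GAS match ran from -45 to -37 and in Irgm2 from -75 to -67, in each case next to the ISRE match. Gbp7 had 2 GAS matches, from -106 to -98 and from -87 to -79. The printed windows of Igtp and Irgm2 were 91.1% identical over 271 aligned columns, so their matches share a sequence. A match is a description of letters, not of binding. In the order of the RefSeq gene table, Igtp lies between Gm12250 and Irgm2, Gbp7 between Gbp5 and Gbp3, and Gbp3 next to Gbp2b. Gbp10 lies between Gbp4 and Gbp6, so most of these genes stand in clusters of relatives.

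**Figure D1:**
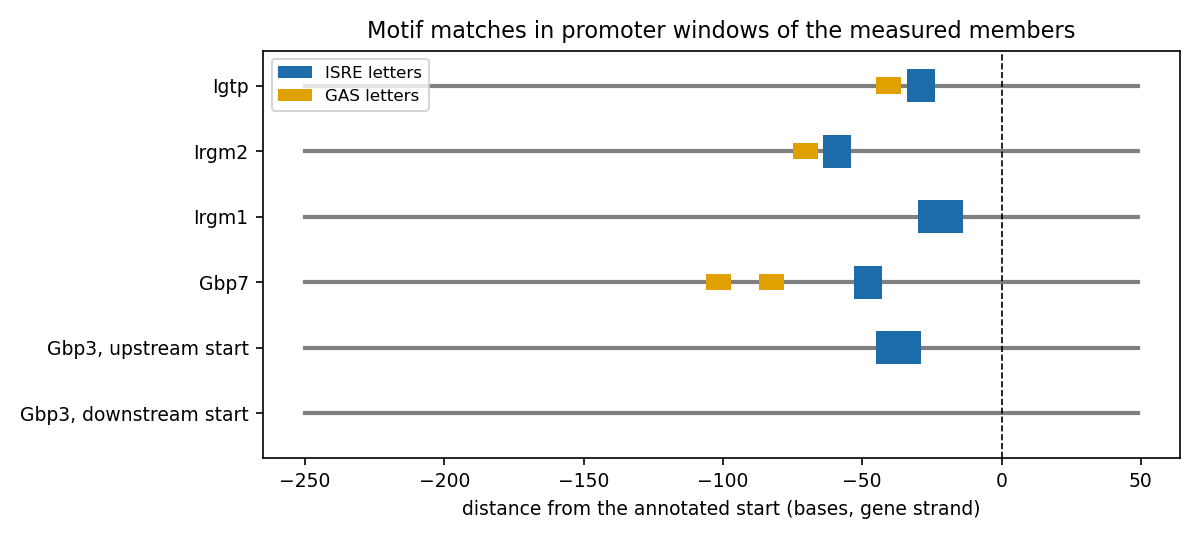
Positions of the ISRE and GAS letter matches in the 6 promoter windows of the 5 measured members that have a window (blue for ISRE, yellow for GAS). The x axis is the distance from the start in bases, with 1 row per window. The ISRE matches of Igtp, Irgm2, Irgm1, Gbp7 and the upstream start of Gbp3 lie between -64 and -15, and the downstream start of Gbp3 has no match.

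The deposited values are on the log2 scale, so a difference of 1 is a doubling. The median over all 41345 probe sets was 5.08 to 5.22 on the 8 arrays and the median over named genes 5.86 to 5.98; levels relative to the array median refer to that over named genes. Arrays correlated at 0.981 to 0.991 within groups (4 pairs) and at 0.973 to 0.988 between groups (24 pairs). Genes entered the tests if they lay above the array's median on 2 or more of the 8 arrays, which left 11712 genes and kept the 7 measured members. Rpl10a, a protein of the large ribosomal subunit and a common carrier of such GFP tags, served as check of the capture and was higher in pull-downs than in inputs by 1.49 (SE 0.10, limma with Benjamini-Hochberg adjusted p = 4.12e-05); it was also lower in VTA inputs than in NAC inputs by a log2 difference of -0.82 (limma with Benjamini-Hochberg adjusted p = 0.0133). As a check of the tissue, Slc17a7, the vesicular glutamate transporter of cortical excitatory neurons and the defining marker of that list, lay between 11.5 and 11.8 on every array.

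The comparison of VTA with NAC asked whether the GTPase transcripts differed between mPFC RNA of mice injected in the one or the other target, in the captured ribosomes and in the tissue. All 7 measured members were lower in VTA than in NAC RNA, in pull-downs and in inputs alike, by 2.59-fold to 9.68-fold on the deposited scale. The table holds no detection calls, and Irgm2, Irgm1, Iigp1 and Gbp3 had 1, 4, 3 and 3 of 4 VTA values under the array's median over all probe sets, so whether those values lie above background was not tested and the folds of these 4 genes are those of the deposited values only. In each of the 7 genes, all 4 VTA arrays lay under all 4 NAC arrays, which was true of 2.56% of the genes tested. In bulk RNA, fewer cells of a type and less RNA per cell cannot be told apart, and this holds for each difference that follows.

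Igtp, a regulatory immunity-related GTPase of the endoplasmic reticulum and lipid droplets, showed the widest gap among the 7. It had 5.76 and 5.87 in VTA pull-downs, against 8.74 and 8.40 in NAC pull-downs. In the inputs it had 6.27 and 5.98 for VTA, against 8.94 and 9.001 for NAC. The highest VTA array was thus 2.13 below the lowest NAC array, and the VTA values lay close to the array median, with 3 of 4 VTA arrays above it. The VTA minus NAC difference was -2.76 in pull-downs (SE 0.13, 6.75-fold lower, limma with Benjamini-Hochberg adjusted p = 4.26e-06) and -2.84 in inputs (SE 0.13, 7.18-fold lower, adjusted p = 2.71e-06). Only 3 tested genes had a lower difference than Igtp in the pull-downs, where it ranked 4 from the lowest, and it ranked 10 in the inputs.

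Irgm2, a regulatory GTPase of the Golgi, had 4.95 and 5.47 in VTA pull-downs, against 7.49 and 6.997 in NAC pull-downs. Its inputs had 5.79 and 5.51 for VTA, against 7.92 and 7.44 for NAC. The 4 VTA values were under the array medians and the 4 NAC values over them. The difference was -2.03 in pull-downs and -2.03 in inputs, with an SE of 0.22 in each (limma with Benjamini-Hochberg adjusted p = 0.000665 and 0.000618).

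Irgm1, the regulator best known for its part in autophagy and in resistance to mycobacteria, had 5.02 and 4.81 in VTA pull-downs, against 6.49 and 6.24 in NAC pull-downs. In inputs it had 4.82 and 4.76 for VTA, against 6.62 and 6.57 for NAC. Like Irgm2, it was under the median on the 4 VTA arrays and over it on the 4 NAC arrays. The difference was -1.45 in pull-downs and -1.81 in inputs, with an SE of 0.11 in each (limma with Benjamini-Hochberg adjusted p = 7.52e-05 and 1.11e-05).

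Iigp1, an effector that coats and disrupts the vacuole of Toxoplasma, had 4.86 and 5.42 in VTA pull-downs, against 7.70 and 7.31 in NAC pull-downs. Its inputs had 4.93 and 4.57 for VTA, against 8.09 and 7.97 for NAC. The VTA values were under the array medians, and no measured member had a larger difference between the inputs. That difference was -3.27 (SE 0.20, 9.68-fold lower, limma with Benjamini-Hochberg adjusted p = 9.72e-06), the fourth lowest of the 11712 genes, and the pull-downs differed by -2.37 (SE 0.20, 5.16-fold lower, adjusted p = 9.85e-05).

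Gbp10, one of the guanylate-binding proteins, which assemble on pathogen membranes, had 6.11 and 6.31 in VTA pull-downs, against 8.95 and 8.34 in NAC pull-downs. Its inputs had 6.25 and 6.27 for VTA, against 9.12 and 8.67 for NAC. Gbp10 was the one measured member above the array median on all 4 VTA arrays. The difference was -2.44 in pull-downs (SE 0.19, 5.41-fold lower, limma with Benjamini-Hochberg adjusted p = 7.63e-05) and -2.64 in inputs (SE 0.19, 6.23-fold lower, adjusted p = 3.2e-05).

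Gbp7, a guanylate-binding protein linked in mice to the delivery of antimicrobial and autophagy proteins to vacuoles, had 5.85 and 5.64 in VTA pull-downs, against 7.61 and 7.73 in NAC pull-downs. Its inputs had 6.42 and 6.44 for VTA, against 8.18 and 8.41 for NAC. Both VTA inputs were above the array median and both VTA pull-downs below it. The difference was -1.92 in pull-downs and -1.86 in inputs, with an SE of 0.11 in each (limma with Benjamini-Hochberg adjusted p = 1.5e-05 and 9.95e-06).

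Gbp3, a family member that lacks a lipid anchor at its end, had 4.47 and 4.70 in VTA pull-downs, against 6.58 and 6.27 in NAC pull-downs. Its inputs had 5.31 and 4.99 for VTA, against 6.39 and 6.67 for NAC. It had the narrowest gap of the 7, 0.956 between the highest VTA and the lowest NAC array, and was under the median on the 4 VTA arrays. The difference was -1.84 in pull-downs and -1.37 in inputs, with an SE of 0.15 in each (limma with Benjamini-Hochberg adjusted p = 0.000103 and 0.000742).

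**Figure D2:**
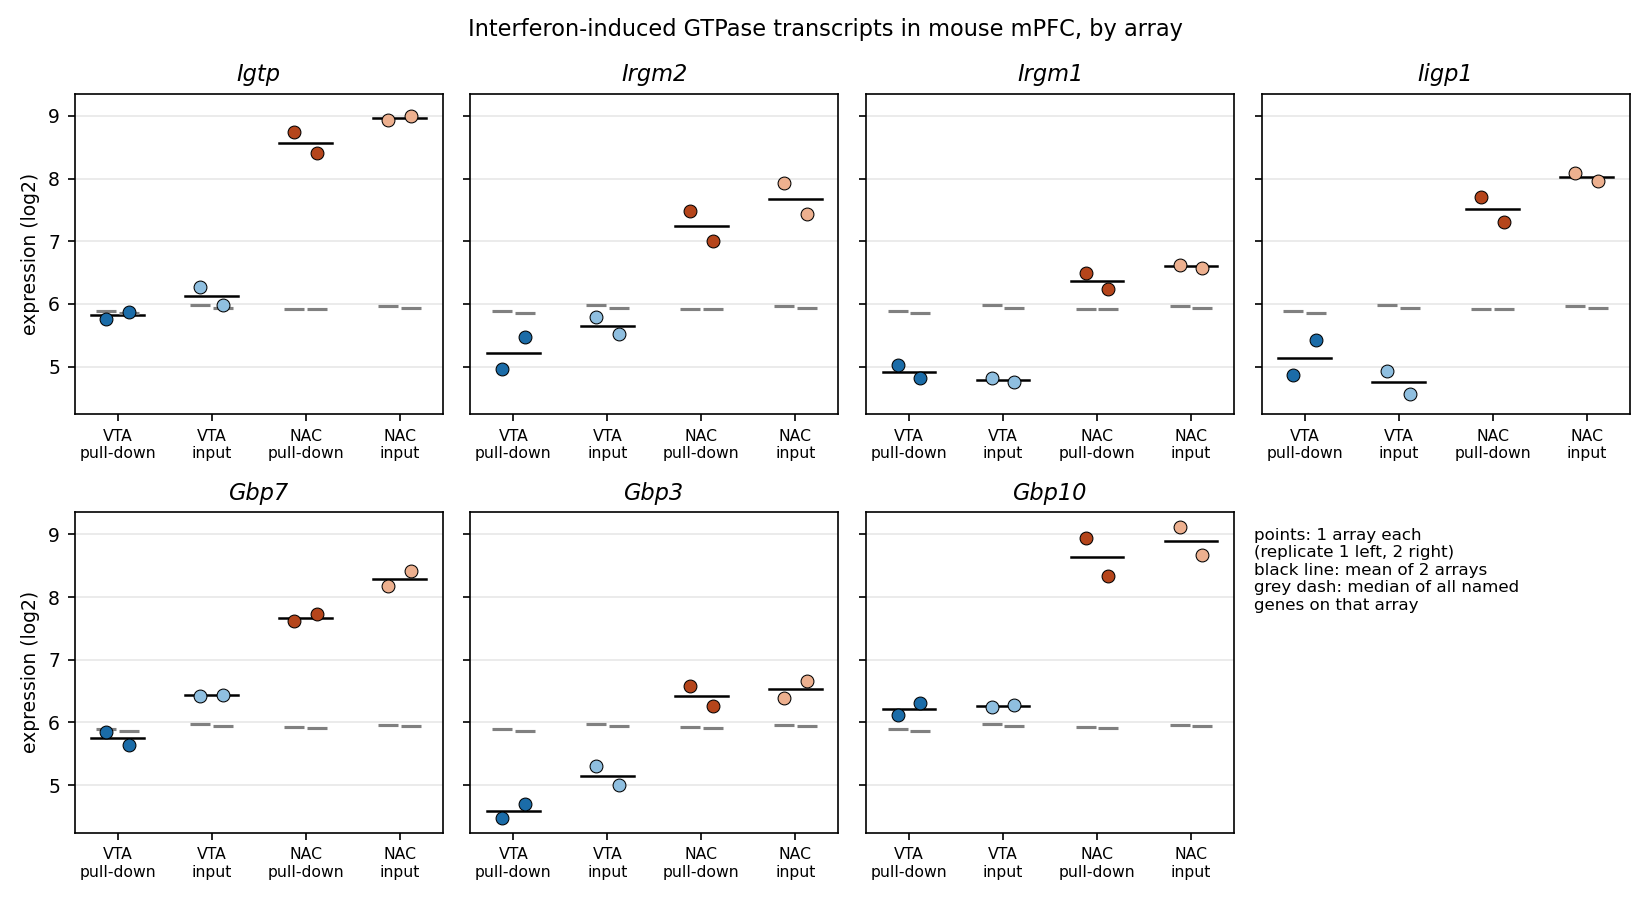
Deposited log2 values of the 7 measured members on each array, 1 panel per gene, with a point per array, a black line for the mean of 2 arrays and a grey dash for the array's median over named genes. In each panel the 4 VTA points lie below the 4 NAC points.

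Counted together, 7 of 7 tested members were lower in VTA than in NAC pull-downs at an adjusted p of 0.05 (limma with Benjamini-Hochberg adjustment), where 2.05% of the 11712 tested genes were lower, 0.418% higher and 2.47% called in either direction. As deposited, 49 genes were higher and 240 lower between the pull-downs, and centring the arrays gave 85 higher and 201 lower. Between inputs, 7 of 7 were lower, where 1.38% of tested genes were lower, 0.12% higher and 1.5% called in either direction. Both comparisons called 126 genes lower (1.08%), and 7 of these are members. The comparisons share no arrays, but they come from the same fit and may share mice. The median difference of the members was -2.03 in pull-downs and -2.03 in inputs, and that of tested genes was -0.04 in pull-downs and 0.06 in inputs.

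Of the 7 measured members, 4 (Irgm2, Irgm1, Iigp1 and Gbp3) passed the filter on low values through their NAC arrays alone, and 19 of the 28 VTA values lay under the array median. The folds of these genes are therefore set against VTA values in the lower part of the scale. Without the filter, 7 of 7 were again lower in both comparisons, beside 100 of all 22180 genes in pull-downs and 136 in inputs. The same totals stand beside the counts without the filter that are given for lists and markers below. Over 13 alternative settings, which included other scalings and leaving out each array, the members' differences were between -2.93 and -1.32 in pull-downs, with adjusted p up to 0.00949, and between -3.46 and -1.22 in inputs, with adjusted p up to 0.021 (limma with Benjamini-Hochberg adjustment).

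**Figure D3:**
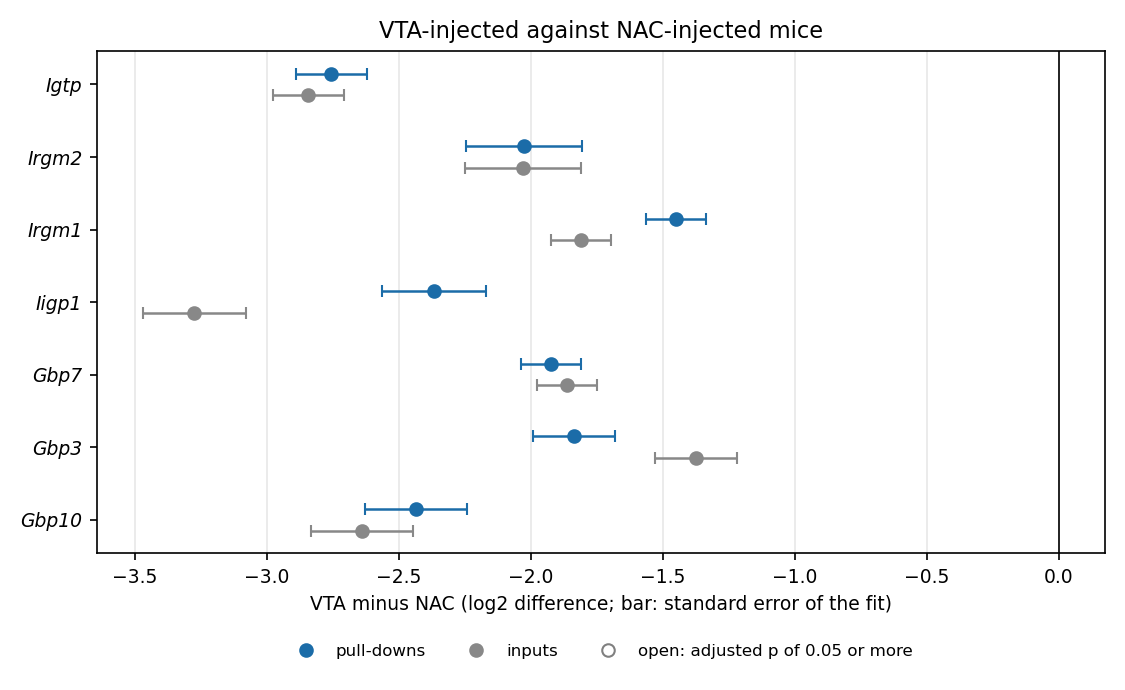
VTA minus NAC log2 differences of the 7 measured members in pull-downs and in inputs, with bars of 1 SE from the limma fit; filled points passed the adjusted p of 0.05. The differences lie between -2.76 and -1.45 in pull-downs and between -3.27 and -1.37 in inputs.

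Pull-downs were compared with inputs to ask how far the members' RNA was present on the tagged ribosomes relative to the whole tissue. Averaged over both targets, 4 of 7 tested members were lower in pull-downs and 0 were higher, where 32% of tested genes were lower, 9.6% higher and 41.5% called in either direction (limma with Benjamini-Hochberg adjustment, threshold 0.05). These differences, between -0.65 and -0.05, were smaller than those between targets. Gbp7 differed by -0.65 (SE 0.08, limma with Benjamini-Hochberg adjusted p = 0.000532), Irgm2 by -0.44 (SE 0.16, adjusted p = 0.0444), Igtp by -0.35 (SE 0.10, adjusted p = 0.0157) and Gbp3 by -0.34 (SE 0.11, adjusted p = 0.0322). Gbp10, Iigp1 and Irgm1 did not pass, with differences of -0.15, -0.07 and -0.05 (adjusted p = 0.394, 0.721 and 0.634). The members' median was -0.34, and that of tested genes -0.11. The scaling moved this comparison over all genes: 1124 genes were higher and 3742 lower as deposited, 1523 and 2561 with each array centred, and 2060 and 2180 after quantile normalization, where 2 and 3 members were lower.

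Of these 4 calls, that of Gbp7 held without each array in turn. The call of Igtp was lost, by limma with Benjamini-Hochberg adjustment, when the first VTA input was left out (adjusted p = 0.0703), and likewise for NAC pull-down 2 (adjusted p = 0.0545) and NAC input 2 (adjusted p = 0.0504). That of Gbp3 was lost without VTA pull-down 1 (adjusted p = 0.0922), VTA input 1 (0.132), NAC pull-down 2 (0.108) or NAC input 2 (0.115). That of Irgm2 was lost without VTA pull-down 1 (adjusted p = 0.139), VTA input 1 (0.158), VTA input 2 (0.0639), NAC pull-down 2 (0.142) or NAC input 1 (0.167). Without the filter on low values, the calls of Igtp, Gbp3 and Irgm2 were lost as well (adjusted p = 0.0574, 0.0926 and 0.114), and that of Gbp7 was kept.

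Taken by target, 2 of 7 members were lower in VTA pull-downs than in VTA inputs and 0 were higher, where 25.9% of tested genes were lower, 5.44% higher and 31.3% were called in either direction. They were Gbp7, by -0.68 (limma with Benjamini-Hochberg adjusted p = 0.00406), and Gbp3, by -0.57 (adjusted p = 0.0218); the call of Gbp3 was lost without the first VTA pull-down (adjusted p = 0.116) or the first VTA input (adjusted p = 0.176). In NAC mice 1 of 7 was lower in pull-downs than in inputs and 0 were higher, where 8.01% of tested genes were lower, 4.34% higher and 12.3% were called in either direction. This was Gbp7, by -0.62 (limma with Benjamini-Hochberg adjusted p = 0.0117), a call that did not hold without NAC input 2 (adjusted p = 0.0911). Without the filter on low values, the calls of Gbp3 in VTA mice (adjusted p = 0.0733) and of Gbp7 in NAC mice (adjusted p = 0.0784) were lost too. Irgm1 and Iigp1 had VTA pull-down minus input values of 0.13 and 0.39, which did not pass (adjusted p = 0.407 and 0.152); without the first VTA pull-down, Iigp1 passed at 0.67 (adjusted p = 0.0431).

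Whether the pull-down minus input difference itself differed between the targets was tested as an interaction. By limma with Benjamini-Hochberg adjustment it was called for 0 of 7 members and for 0.0683% of tested genes (0.00854% higher, 0.0598% lower). At an unadjusted p under 0.05 there was 1 member, and the share of all genes at that p was not counted. The value, VTA minus NAC, was 0.91 for Iigp1 (SE 0.28, adjusted p = 0.282), 0.36 for Irgm1, 0.20 for Gbp10, 0.09 for Igtp, 0.00 for Irgm2, -0.06 for Gbp7 and -0.46 for Gbp3. Adjusted p-values ran from 0.282 to 0.999.

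Within each gene, both NAC groups stood above both VTA groups for each of the 7 members. NAC inputs averaged highest in each, and of the steps between pull-downs and inputs of the same target, those of Gbp7 in both targets and of Gbp3 in VTA passed the test. Against the array median, Igtp averaged -0.06 ± 0.10 in VTA pull-downs and 0.17 ± 0.17 in VTA inputs, then 2.66 ± 0.24 in NAC pull-downs and 3.02 ± 0.07 in NAC inputs (SD, n = 2 each). Gbp3 averaged -1.29 ± 0.18 in VTA pull-downs and -0.81 ± 0.19 in VTA inputs, then 0.51 ± 0.21 in NAC pull-downs and 0.58 ± 0.22 in NAC inputs (SD, n = 2 each).

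**Figure D4:**
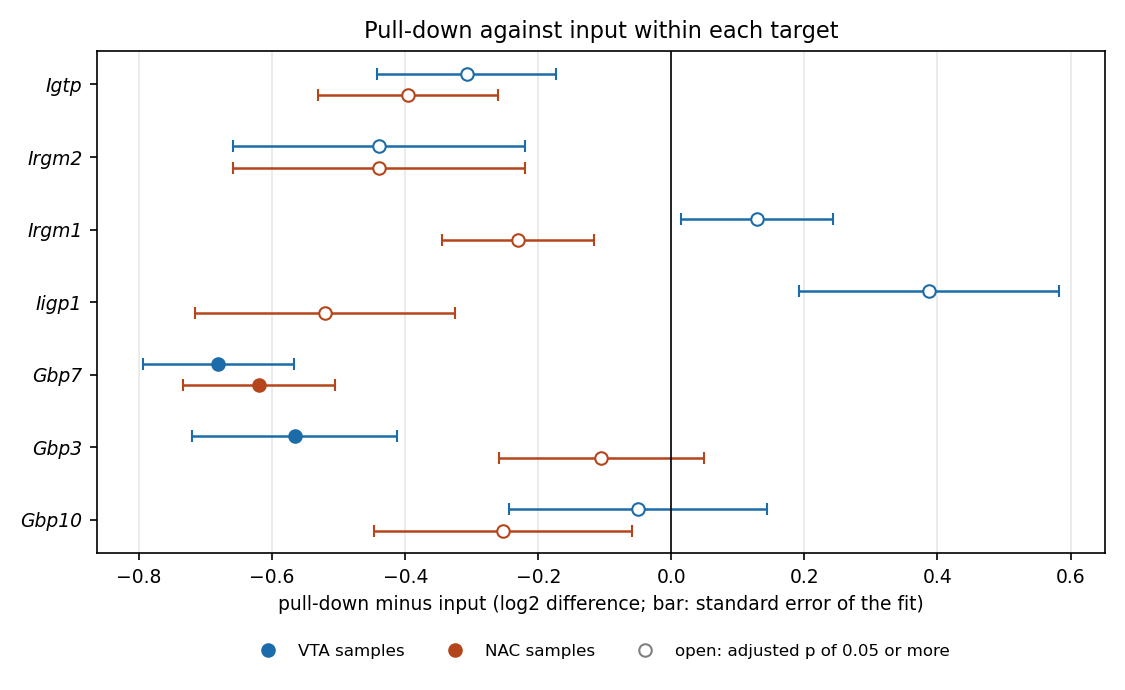
Pull-down minus input log2 differences of the 7 measured members, in VTA and in NAC mice, with bars of 1 SE from the limma fit; filled points passed the adjusted p of 0.05 and open points did not. Gbp7 lies at -0.68 in VTA and -0.62 in NAC mice, and Iigp1 has the widest step between the targets, 0.39 against -0.52.

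Relatives and other genes of the interferon pathway were followed with named lists. Of 25 other GTPases listed as relatives, 17 had a probe set and 6 could be tested. The list is wider than the 2 families, as Mx1, Mx2, Atl1 and Atl3 in it belong to neither. Of those, 3 were lower in VTA than in NAC, in pull-downs and in inputs, and 0 were higher (limma with Benjamini-Hochberg adjustment). Gm12250, the effector also called Irgb10, differed by -1.20 in pull-downs and -2.40 in inputs, Gm4841 by -1.64 and -1.60, and Gbp9 by -0.75 and -0.85. The 3 that were not called were Irgq (0.32 in pull-downs and -0.05 in inputs), Atl1 (-0.12 and 0.10) and Atl3 (-0.02 and 0.02). The other 11 with a probe set, among them Gbp4 and Gbp5, did not reach the array median on the 2 arrays that the filter asks for. Gm12250, Gm4841 and Gbp9 passed that filter through NAC arrays alone, so their count is a description; without the filter, 4 of 17 were lower in each comparison and 0 higher.

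Among receptors, kinases and transcription factors of interferon signalling, 18 of 20 could be tested; 5 were lower in VTA pull-downs than in NAC pull-downs and 4 were lower in VTA inputs than in NAC inputs, with 0 higher in either. Irf9, the DNA-binding partner of STAT2, differed by -1.34 in pull-downs and -0.84 in inputs. Irf7, which drives type I interferon genes, differed by -1.22 and -1.26, Stat2 by -0.66 and -0.75, and Irf1, which induces GTPase genes, by -0.57 and -0.74. The fifth gene in the pull-downs was Irf8, at -0.49. The receptor genes Ifngr1, Ifngr2, Ifnar1 and Ifnar2, named after their values were seen, did not pass in either comparison. Of the genes tested, 3 (Irf1, Irf8 and Socs3) passed the filter through NAC arrays alone, and without the filter 2 of 19 were lower in pull-downs and 4 in inputs, with 0 higher.

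Of 6 interferon genes, Ifna4 could be tested, with differences of -0.30 in pull-downs and -0.10 in inputs that did not pass; the other 5, Ifng and Ifnb1 among them, did not pass the filter on low values. The antiviral genes known for induction by type I interferon numbered 28, of which 21 could be tested. In VTA against NAC, 16 of them were lower in pull-downs and 14 in inputs, and 0 were higher in either. Oasl2, of the oligoadenylate synthetase family, differed by -2.23 in pull-downs and -2.39 in inputs. Ifit1, which binds foreign RNA, differed by -1.90 and -2.03, and Isg15, a ubiquitin-like modifier, by -1.84 and -1.82. Of the 21, 8 passed the filter through NAC arrays alone, Isg15 among them; without the filter, 11 of 26 were lower in pull-downs and 16 in inputs, with 0 higher.

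Of 20 genes of antigen processing and chemokines that interferon gamma induces, 16 could be tested. In VTA against NAC, 12 of them were lower in pull-downs and 12 in inputs, and 0 were higher in either. H2-Ab1 and H2-Aa, the chains of an MHC class II molecule, differed by -3.18 and -2.98 in pull-downs and by -3.25 and -2.89 in inputs. The T cell attractants Cxcl9 and Cxcl10 differed by -2.47 and -2.44 in pull-downs and by -2.52 and -2.32 in inputs. They and 2 others, Psmb9 and Tap2, passed the filter through NAC arrays alone; without the filter, 9 of 18 were lower in pull-downs and 11 in inputs, with 0 higher.

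Of the 14 genes of the autophagy conjugation machinery and its adaptors, which loads GTPases onto vacuoles, 14 could be tested, and 0 were called in pull-downs or in inputs by limma with Benjamini-Hochberg adjustment; 0 in pull-downs and 1 in inputs had an unadjusted p under 0.05. List medians in pull-downs and in inputs were -0.44 and -0.45 for the other GTPases, -0.16 and -0.12 for the signalling genes, -0.91 and -0.91 for the antiviral genes, -1.14 and -1.31 for antigen processing, and -0.09 and 0.06 for autophagy. With each array centred or quantile normalized, the counts of these 5 lists among tested genes moved by at most 1 gene and 0 were called higher, and the median of each of these 5 lists kept its sign.

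**Figure D5:**
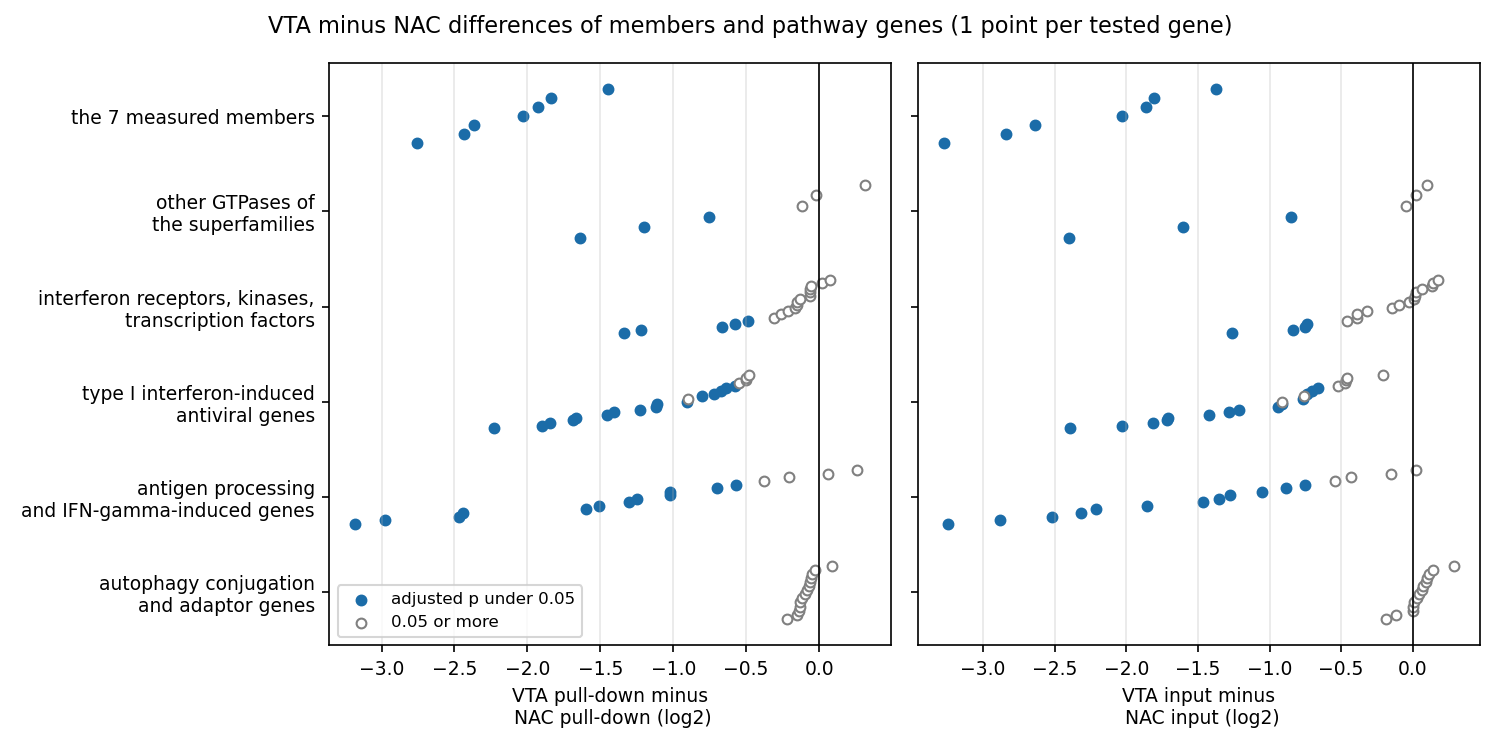
VTA minus NAC log2 differences of the tested genes of each list, in pull-downs and in inputs, with a point per gene, filled where the adjusted p was under 0.05. The members, the antiviral genes and the antigen processing genes lie mostly below 0, and the autophagy genes lie around 0.

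Of 11 tested microglial markers, 5 were lower and 1 was higher in VTA than in NAC pull-downs, and 6 were lower and 1 higher in inputs (limma with Benjamini-Hochberg adjustment). The called markers are named after their values were seen. The higher one was Fcrls, at 0.71 in each. Those lower in both were C1qa, C1qb, C1qc, Ctss and Trem2, and Aif1 was lower in inputs only. P2ry12, Csf1r and Tmem119 were not called in either. Without the filter on low values, 2 of the 11 microglial markers were lower in pull-downs and 5 in inputs, with 0 higher. Their summed level, with the deposited values returned to the linear scale, was 2570 to 2750 in VTA pull-downs, against 3900 to 4030 in NAC pull-downs, and 3570 to 3610 in VTA inputs, against 5860 to 5990 in NAC inputs. The defining marker Cx3cr1, the fractalkine receptor of microglia, differed by -0.17 in pull-downs and -0.30 in inputs, which did not pass (adjusted p = 0.415 and 0.274). So the summed level of the list and its defining marker did not move by the same amount. Ctss and C1qb had the highest values of the list on every array and weigh most in that sum.

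Of 13 lymphocyte and blood cell markers, 9 had a probe set, 4 of these exceeded the median on no array, and 5 could be tested. Of those, 4 were lower in VTA than in NAC pull-downs and 5 in inputs, with 0 higher; after quantile normalization 3 were lower in each. As 4 of the 5 passed the filter through NAC arrays alone, these counts are a description. Without the filter, limma called 0 of 9 lower in pull-downs and 3 in inputs. At an unadjusted p under 0.05, 8 were lower in each, and the share of all genes at that p was not counted. Their summed level was 348 to 358 in VTA pull-downs, against 500 to 533 in NAC pull-downs, and 328 to 329 in VTA inputs, against 675 to 686 in NAC inputs. Ptprc, the leukocyte surface phosphatase CD45, was among the 4 markers that passed the filter through NAC arrays alone. With the filter, Ptprc differed by -0.81 in pull-downs and -0.97 in inputs (limma with Benjamini-Hochberg adjusted p = 0.0467 and 0.0247). Its call in pull-downs was lost without the filter. The part of microglial and lymphocyte RNA in the members' differences was not tested.

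For the remaining cell types, 0 of 7 endothelial, 0 of 7 oligodendrocyte and 0 of 7 interneuron markers were called between VTA and NAC, in pull-downs or inputs. The called markers of other types are named after their values were seen. Of 8 astrocyte markers, Gfap was lower in both, by -1.22 in pull-downs and -0.84 in inputs, while the defining marker Aqp4 had -0.10 and -0.13 and did not pass. Of 6 markers of cortical glutamatergic neurons, 2, Bcl11b at 0.73 and Fezf2 at 0.51, were higher in VTA than in NAC pull-downs (1 without the filter) and 0 were called in inputs. The summed level of that list was 8790 to 9180 in VTA pull-downs and 9050 to 9090 in NAC pull-downs. Of 8 mural cell and fibroblast markers, Col1a1 was lower in VTA inputs than in NAC inputs, by -0.71, and 0 were called in pull-downs.

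Averaged over both targets, 10 of 11 microglial, 7 of 8 astrocyte and 6 of 7 oligodendrocyte markers were lower in pull-downs than in inputs. Of endothelial markers 4 of 7 were lower, of mural cell and fibroblast markers 6 of 8, and of lymphocyte and blood cell markers 3 of 5. Neuronal markers were lower too, 5 of 7 of interneurons and 2 of 6 of cortical glutamatergic neurons, where 1 was higher. Among all tested genes, 32% were lower (limma with Benjamini-Hochberg adjustment). With each array centred, 5 astrocyte, 3 interneuron and 0 glutamatergic markers were lower, and after quantile normalization 6, 3 and 1. Of all 11712 tested genes, 2561 were lower with each array centred and 2180 after quantile normalization. Cx3cr1 differed by -0.30 (limma with Benjamini-Hochberg adjusted p = 0.00656), and the 7 measured members lay between -0.65 and -0.05, with 4 of them lower. Which cells held the GTPase RNA was not tested.

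The 5 genes whose pattern over the 8 arrays was most like the mean of the 7 measured members, by Pearson correlation, were Trav9d-3 (r = 0.998), Igkv9-120 (r = 0.996), Rtp4 (r = 0.996), Bst2 (r = 0.996) and Klk6 (r = 0.995). The 8 arrays fall apart by target, so a gene that differs between the targets has a high r, and the values are given with no test. Trav9d-3 and Igkv9-120 are variable segments of a T cell receptor chain and of an immunoglobulin light chain. Igkv9-120 had the lowest VTA minus NAC value of the 11712 tested genes in both comparisons, -4.36 in pull-downs and -4.87 in inputs. Its VTA values, 2.79 to 3.35, lay under the array medians, so it passed the filter on low values through NAC arrays alone. The same holds for Klk6, with VTA values of 5.36 to 5.72. Whether these VTA values lie above background was not tested. Bst2, the antiviral protein tetherin, differed by -1.68 and -1.71, and Rtp4, an interferon-induced receptor transporter protein, by -1.22 and -1.28. Klk6, a secreted protease, differed by -1.29 and -1.23.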

How the data were processed

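Gene expression was measured on 8 Affymetrix arrays. Per the submitters' processing notes, the deposited log2 values, 1 per probe set, were made with Transcriptome Analysis Console; its version and settings were not given in the sources used. Samples were grouped by the labels' source name and capture reagent. Of 41345 probe sets, 23521 had 1 annotated symbol; where a gene had several, the brightest on average was used. The genes, lists and markers were chosen with earlier results of these data known, and the lists are descriptions. Up to 4 called genes with the largest difference were named per list and comparison, and the first marker of a list was its defining one.

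Group means were estimated jointly over the 8 arrays by limma 3.58.1 under R 4.3.3 (lmFit, eBayes; two-sided; 4 residual and 6.07 prior degrees of freedom), with Benjamini-Hochberg adjustment over 11712 genes and a threshold of 0.05. Differences are in log2 units with their SE. Counts at an unadjusted p are descriptions, because the share of all genes at that p was not counted. Fits were run on simulated data with independent noise of the same SD in each gene, which cannot test values near background or arrays that share mice. Precision is limited by the number of arrays, which have no read depth. Alternatives were no filter, array centring, quantile normalization, mean of probe sets, a replicate block and leaving out each array. Letter matches in RefSeq promoters (GRCm38.p6) were searched with Python 3.11.15. The members' windows, with the upstream one for Gbp3, were aligned in pairs with Biopython 1.88. Of these pairs, that of Igtp and Irgm2 is reported.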

Additional observations from a re-analysis of the deposited data

How the results depend on the processing

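Between VTA and NAC, 7 of 7 measured members were called lower under each of 13 alternatives, in pull-downs and in inputs. Averaging probe sets cannot alter these members, which have 1 each, and moved only their distance from the array median. Pull-down against input was less stable: over both targets 4 members were called, 1 without the filter on low values, 2 with each array centred, 3 after quantile normalization and 3 with a replicate block, under which Gbp3 missed the threshold (limma adjusted p = 0.0540); leaving out each array gave 1 to 4. Same-numbered arrays deviated with correlations of -0.13 to 0.30, and the labels do not say that a number marks shared tissue, so the block is an alternative. In NAC mice 1 was called, 0 without the filter (limma, 3 of 7 at an unadjusted p under 0.05) and 0 to 2 without an array; in VTA mice 2 were called, 1 without the filter and 1 to 3 without an array. The difference of enrichment was called for 0 members throughout.

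Values near 0 changed sign. With arrays centred, Irgm1 over both targets was 0.0072 and Gbp10 in VTA mice 0.034; after quantile normalization Gbp10 was 0.080 and Irgm2 in the difference of enrichment -0.083. Leaving out each array spanned 0 over both targets for Irgm1 (-0.12 to 0.013) and Iigp1 (-0.21 to 0.074), in NAC mice for Gbp3 (-0.26 to 0.050) and Gbp10 (-0.56 to 0.050), in VTA mice for Gbp10 (-0.15 to 0.046), and in the difference of enrichment for Igtp (-0.084 to 0.26), Irgm2 (-0.26 to 0.26), Gbp10 (-0.10 to 0.51) and Gbp7 (-0.18 to 0.054). Over all genes, calls without an array ran from 3074 to 5055 over both targets (4866 with all arrays), 148 to 1882 in NAC mice (1446), 413 to 3700 in VTA mice (3671), 149 to 331 between pull-downs (289), 100 to 207 between inputs (176) and 1 to 8 for the difference of enrichment (8). Without the filter they were 105 in NAC mice, 1907 in VTA mice, 113 between pull-downs and 1 for the difference of enrichment, which had 2 calls after quantile normalization and 1 with the replicate block. The causes were not tested. When 1 array is left out, the lone array of its group is assumed to vary like the others.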

Other observations

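Beyond the members, 119 genes were lower in VTA than in NAC both in pull-downs and in inputs (limma with Benjamini-Hochberg adjustment, threshold 0.05). Of these, 84 had a window in the RefSeq promoter table. The ISRE letters were found in 16 of the 84 (19%), against 3.99% of all genes in the table and 6 of 6 members with a window. The GAS letters were found in 11 of the 84 (13.1%), against 9.55% of all genes and 3 of 6 members with a window. These shares are descriptions of letters and were not tested.

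Over both targets, pull-downs minus inputs, 2 of the 16 antigen processing genes were higher and 5 lower, 1 of the 21 antiviral genes was higher and 11 lower, and 0 of the 18 signalling genes were higher and 9 lower, beside 9.6% higher and 32% lower among all tested genes (limma with Benjamini-Hochberg adjustment). After quantile normalization, 2 were higher and 4 lower, 1 was higher and 6 lower, and 1 was higher and 6 lower in the same order of lists. Among all 11712 tested genes, 2060 were then higher and 2180 lower. The difference between lists was not tested.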
